A study of Mus musculus with 15 samples.

Results

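The 10 chemokine and chemokine receptor genes that draw monocytes and neutrophils into tissue were followed through 15 RNA-Seq libraries of mouse pancreas. They were taken from a list that names them by function, drawn up with earlier results of these data known, and comprise Ccl2, Ccl7 and Ccl8, the receptor gene Ccr2, Ccl6 and Ccl9, the neutrophil attractants Cxcl1, Cxcl2 and Cxcl5, and Cxcl12. All 10 were listed among the 15175 genes of the MC table and among the 49585 genes of both other tables. The mice were C57BL/6. MC mice expressed M46, a kinase-dead mutant of hematopoietic progenitor kinase 1 (HPK1, the product of Map4k1), from a transgene switched on by Bac-cre, a tamoxifen-inducible Cre under the acinar elastase I promoter. Libraries labelled HC came from mice with the HPK1 transgene and Bac-cre. KC mice carried an oncogene switched on by Bac-cre, and KMC mice carried M46 in addition. There were 3 MC libraries and 3 controls labelled B control, all at 2 months, 3 libraries labelled HC and 2 WT controls, all at 4 months, 2 KC libraries at 15 months and 2 KMC libraries at 9 months. The ages are those of the labels, and the paper gives HC mice and their controls a younger age than the labels do. MC and HC mice had received cerulein, a peptide that overstimulates acinar cells, for 2 days, and pancreata were taken 24 hours later. For their littermate controls the paper's text differs, naming cerulein in its Results and PBS in its Methods, so the treatment of the controls is uncertain. The labels give pancreas as the tissue and no treatment for KC and KMC, where the paper speaks of tumour samples, and their genotype and age cannot be told apart. Each library was pooled from the pancreata of 3 mice by the labels, and all groups kept their own Map4k1 gene in leukocytes. P-values measure the spread between these pooled libraries.

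Chemokines are small secreted proteins that guide leukocytes along a concentration gradient through G protein-coupled receptors. Ccl2, Ccl7 and Ccl8 are monocyte chemoattractant proteins, and Ccr2 on inflammatory monocytes is the receptor that brings these cells out of the bone marrow and into injured pancreas. Cxcl1, Cxcl2 and Cxcl5 act on Cxcr2 of neutrophils and are induced through NF-κB in injured epithelium and stroma. Ccl6 and Ccl9 are rodent CC chemokines made largely by myeloid cells, and Cxcl12 is a constitutive stromal ligand of Cxcr4.

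Total counts ranged from 29766575 to 38745907 per library, so that a gene at 0 could still have stood at 0.0774 to 0.101 CPM (3 counts) before scaling. Levels are given as scaled CPM, that is counts relative to library size after TMM scaling within each pair of groups. On that scale, 3 counts stood at 0.204 in KC 1. Map4k1, the gene of the transgenes, had 7.54 ± 0.763 scaled CPM in MC (SD, n = 3) and 3.42 ± 0.958 in its controls (n = 3). In the HC experiment it went against the label, with 6.76 ± 1.52 in the libraries labelled HC (n = 3) and 13.5 ± 2.74 in the controls (n = 2). These libraries are called by their label throughout, and each direction given for them carries this limit. In KMC, Map4k1 had 8.64 ± 3.85 and in KC 1.05 ± 0.709 (n = 2 each). None of the differences in Map4k1 passed the adjusted threshold, and Ptprc, the pan-leukocyte gene CD45, differed in the same directions. In all 3 experiments, MC and KMC included, transgene and leukocyte reads of Map4k1 cannot be told apart. Acinar genes took 42.7 to 56.7% of counts in MC controls and 38.1 to 47.0% in MC, which overlapped. They took 60.8 to 69.7% in KC and 24.9 to 49.8% in KMC, which did not overlap. In the HC experiment they took 5.82 to 9.11%. Stomach and gut markers summed to 4830 to 6720 scaled CPM in the libraries labelled HC and to 940 to 1840 in their controls, compared with 3.64 to 15.0 in the MC experiment, where 5 of the 11 markers are listed. The part of these tissue differences in the chemokine results was not tested. Xist had 405 and 306 scaled CPM in the KMC libraries and 0.68 and 0.348 in KC, and Ddx3y was at 0 counts in KMC and at 10.7 and 17.3 scaled CPM in KC, so sex also cannot be told apart from genotype there. In the HC experiment, 1 library labelled HC (replicate 3) had 48.3 scaled CPM of Ddx3y, and the other 4 had 0 counts. Neither gene is listed in the MC experiment, so the sex of its mice could not be read from them.

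Compared with their controls, MC pancreata had higher values of all 10 genes, those labelled HC had lower values of 9, and KMC libraries had higher values of all 9 that could be tested against KC. In the MC experiment, the median log2 fold change of the 10 genes was 1.0, beside -0.02 over all 13902 genes tested. A gene was called where edgeR's quasi-likelihood test gave an adjusted p no larger than 0.05 with a log2 fold change of 1 or more in size. No member was called here, and neither was any other gene (0%). Of the 10, 4 had an unadjusted p under 0.05 and a higher value, compared with 9.2% of all genes, and 0 a lower value, compared with 5.45%, and DESeq2 called Ccl8 and Ccl6. In 4 of the 10 (Ccl8, Ccl6, Ccr2 and Cxcl1), every MC library lay above every control, compared with 10.9% of all genes, and in 0 of the 10 below, compared with 9.89%. In the libraries labelled HC, the median was -0.68, beside 0.00 over 18407 genes. Again none was called by edgeR, which called 0.565% of all genes (0.467% as higher and 0.0978% as lower), although 2 had an unadjusted p under 0.05 and a lower value (7.47% of all genes) and 0 a higher value (8.39%), and DESeq2 called Ccl8 as lower. For Ccl8 alone, every library labelled HC lay below both controls (16.1% of all genes), and for no member above both (17.5%). In KMC against KC, the median of the 9 was 2.84, beside 0.03 over 15733 genes. EdgeR called none of them and 0.0191% of all genes (0.00636% as higher and 0.0127% as lower). Of the 9, 8 had an unadjusted p under 0.05 and a higher value (16.1% of all genes) and 0 a lower value (9.48%), and DESeq2 called 7. Both KMC libraries lay above both KC libraries for all 9 tested genes, compared with 34.4% of all genes (30.9% lay below).

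**Figure D1:**
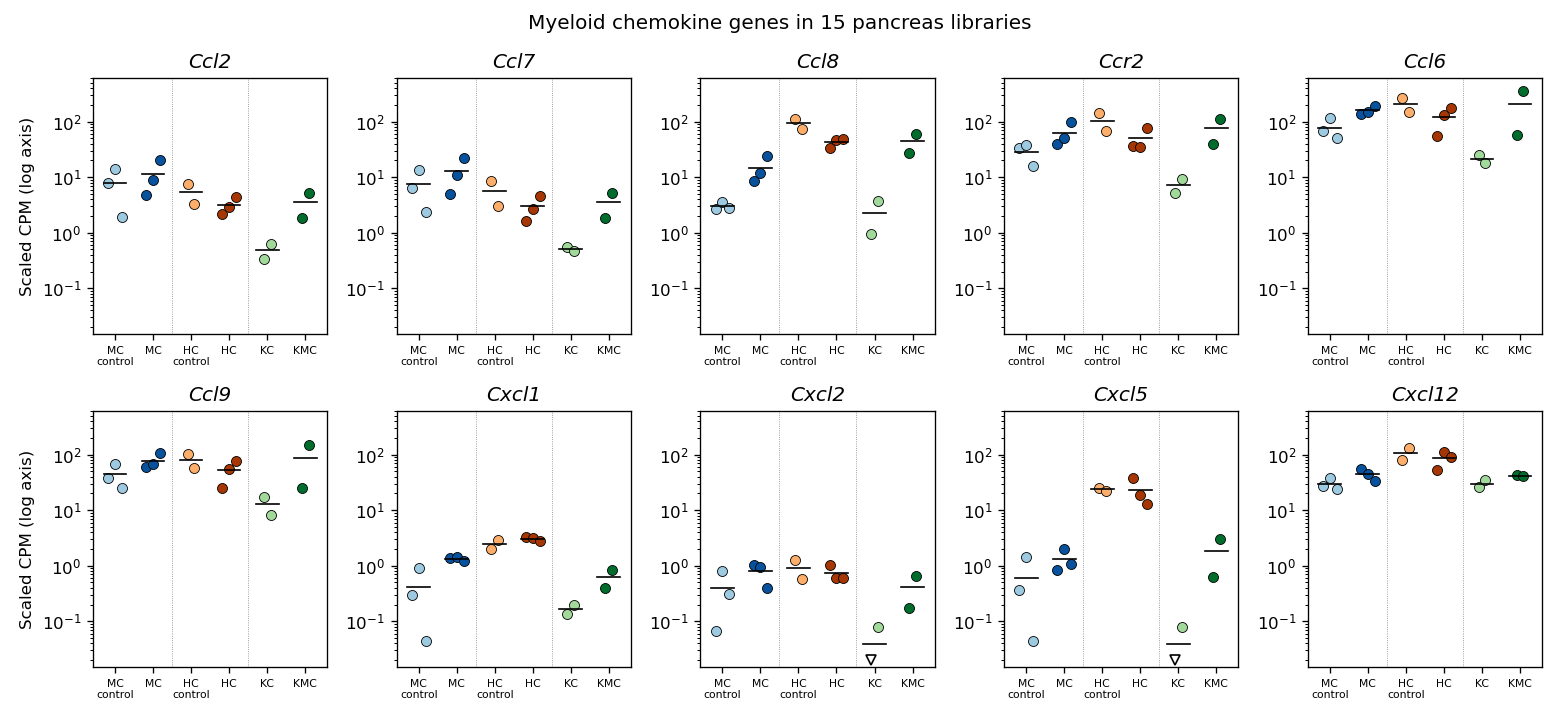
Scaled CPM (log axis) of each of the 10 genes in the 15 libraries, by group, where each point is 1 pooled library, the black line is the group mean, and open triangles at the bottom are libraries at 0 counts. Ccl8 of MC (8.42 to 24.0) lay above its controls (2.68 to 3.54), Ccl2 of MC overlapped its controls, and levels in different experiments were not tested against each other.

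**Figure D2:**
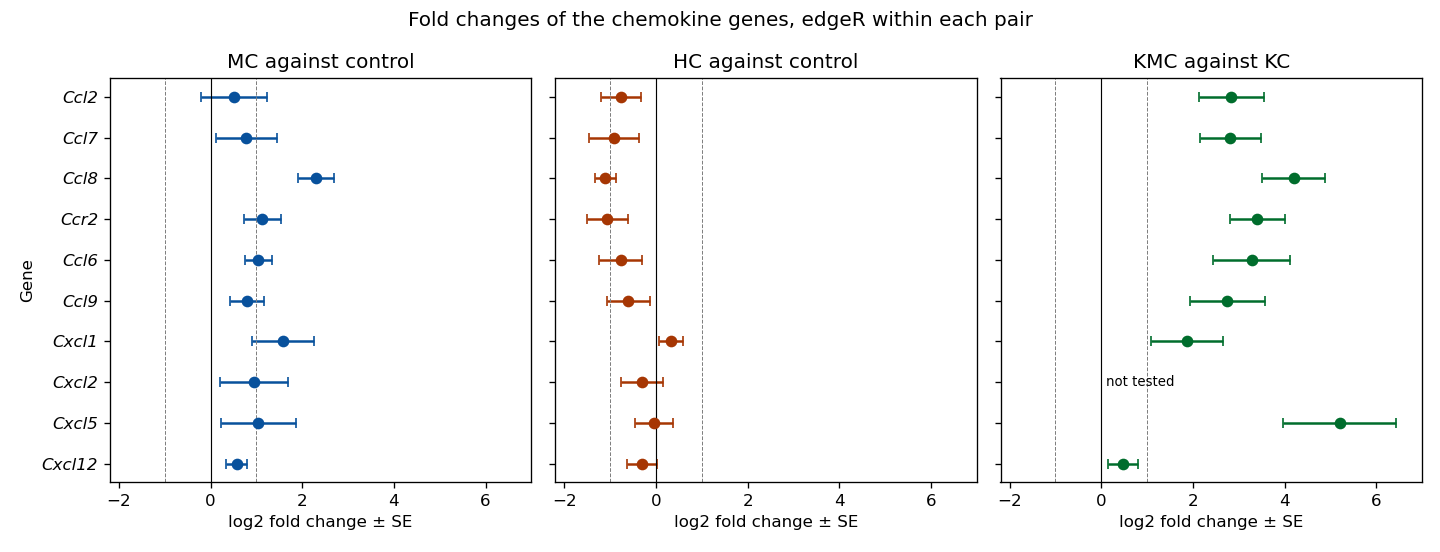
Log2 fold change of each gene with its SE in the 3 comparisons, from edgeR within each pair of groups, with dashed lines at an absolute log2 fold change of 1. Ccl8 stood at 2.30 in MC, -1.11 in the libraries labelled HC and 4.2 in KMC, and Cxcl2 was not tested in KMC against KC.

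Per kilobase of exon, Ccl6 was the most abundant of the 10 in MC controls, with 43.2 ± 18.1 scaled CPM per kb (SD, n = 3), and its lowest library lay above the highest of Ccl9, the next in order (14.5 ± 7.4). Ccl7, Ccl2, Ccl8, Ccr2 and Cxcl12 followed, each overlapping its neighbour, from 9.21 ± 7.03 for Ccl7 to 3.67 ± 0.871 for Cxcl12. The 3 neutrophil attractants came last and overlapped each other, at 0.329 ± 0.389 for Cxcl5, 0.225 ± 0.241 for Cxcl1 and 0.191 ± 0.182 for Cxcl2. Ccl8 followed Ccl6 directly in MC, at 29 ± 16.1 scaled CPM per kb, where it overlapped Ccl9. In the HC controls, Ccl8 led the order with 182 ± 53 per kb (n = 2) and overlapped Ccl6 at 114 ± 44.4. In KC, the order ran from Ccl6 at 11.8 ± 2.76 to Cxcl2 at 0.0187 ± 0.0264 per kb (n = 2).

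Ccl2 and Ccl7 lie next to each other on the plus strand of chromosome 11 (GRCm38, chr11:82035571-82037453 and chr11:82045712-82047525), 8.26 kb apart. Their proteins are the principal ligands of Ccr2. Ccl2 had 7.86, 14.1 and 1.89 scaled CPM in MC controls 1, 2 and 3, and 4.70, 9.00 and 20.7 in MC 1, 2 and 3. The groups overlapped: MC 1 lay below 2 of the 3 controls, and MC 3 was the highest library. The log2 fold change of 0.52 (SE 0.72, adjusted p = 0.727) was smaller than its own error, and without MC 3 it was -0.22. Ccl7 had 6.34, 13.5 and 2.34 in the controls and 5.07, 10.9 and 22.3 in MC, the same order of libraries as for Ccl2, with a log2 fold change of 0.78 (SE 0.67, adjusted p = 0.573). Ccl2 had 2.21, 2.95 and 4.47 scaled CPM in the libraries labelled HC and 7.63 and 3.30 in the controls. Control 1 was high, control 2 lay within the range labelled HC, and the log2 fold change was -0.76 (SE 0.44, adjusted p = 0.457). Ccl7 had 1.65, 2.70 and 4.66 in the libraries labelled HC and 8.37 and 2.99 in the controls, with a log2 fold change of -0.92 (SE 0.55, adjusted p = 0.479), which was 0.00 without control 1. In KC, Ccl2 was near the limit of detection, with 5 and 16 counts (0.34 and 0.619 scaled CPM), compared with 74 and 440 counts in KMC (1.82 and 5.24 scaled CPM). The log2 fold change was 2.84 (SE 0.71, adjusted p = 0.0956). Ccl7 had 8 and 12 counts in KC and 76 and 437 in KMC, with a log2 fold change of 2.82 (SE 0.67, adjusted p = 0.091). Both genes were higher in each KMC library than in each KC library, and KMC 2 was the higher of the pair.

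The counts of Ccl2 and Ccl7 went together from library to library. Their ratio ranged from 0.625 to 1.34 counts of Ccl2 per count of Ccl7, with a median of 0.974 over the 15 libraries, while the count of Ccl2 itself ran from 5 to 839. The lowest ratio was that of KC 1, with 5 and 8 counts, and the highest that of HC 1, with 75 and 56. A second pair of neighbours, Ccl6 and Ccl9, behaved alike, with 1.41 to 2.60 counts of Ccl6 per count of Ccl9 and a median of 2.22. These ratios share the library and its depth and are given as a description. Ccl8 did not keep such a ratio to Ccl2: there were 0.252 to 1.45 counts of Ccl8 per count of Ccl2 in MC controls, 1.16 to 1.79 in MC and 10.8 to 22.3 in the HC experiment, without a test between the tables.

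**Figure D3:**
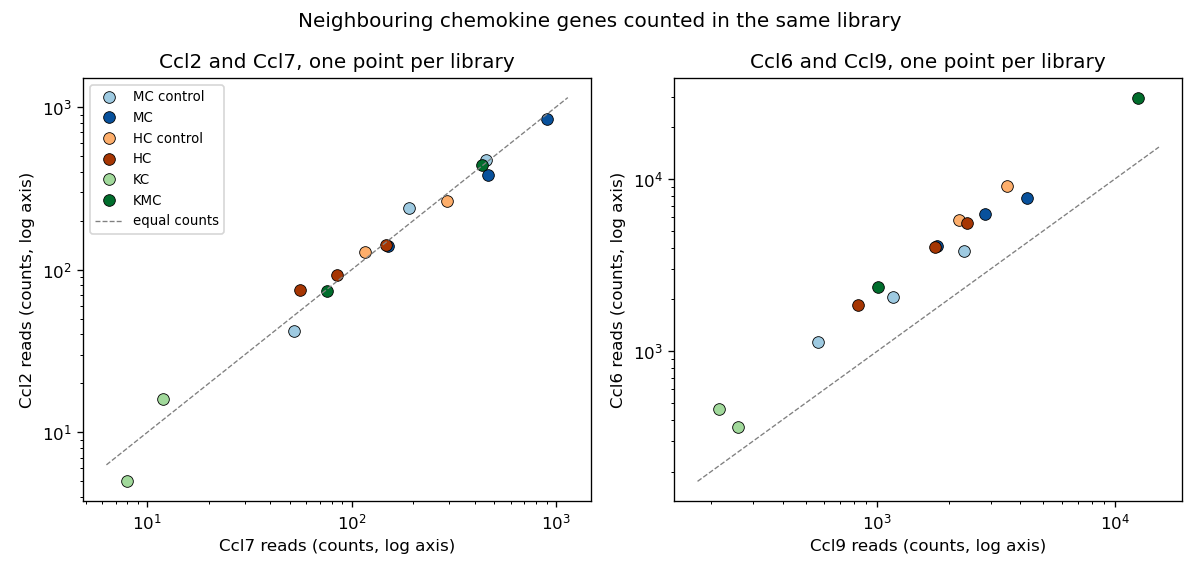
Counts of Ccl2 against Ccl7 (left) and of Ccl6 against Ccl9 (right), both axes logarithmic, 1 point per library, with a dashed line at equal counts. Points of Ccl2 and Ccl7 follow the line (ratio 0.625 to 1.34) and those of Ccl6 and Ccl9 lie above it (ratio 1.41 to 2.60), in all 6 groups.

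Ccl8, monocyte chemoattractant protein 2, lies further along the same gene cluster (chr11:82115185-82116799, plus strand), beyond Ccl11 and Ccl12. Ccl8 had 2.68, 3.54 and 2.74 scaled CPM in MC controls and 8.42, 11.9 and 24.0 in MC, so that the lowest MC library lay above the highest control. The log2 fold change was 2.30 (SE 0.39), the largest of the 10 in this experiment, at an adjusted p of 0.083. Over 13 alternatives its adjusted p ranged from 1.54e-06 to 0.4, and it was called in 3: with DESeq2, without control 2 and without MC 1. Ccl8 had 33.2, 47.5 and 48.2 scaled CPM in the libraries labelled HC and 112 and 73.5 in the controls. The groups did not overlap, and the log2 fold change was -1.11 (SE 0.23) at an adjusted p of 0.0974. Over 13 alternatives the adjusted p ranged from 8.69e-04 to 0.717, and it was called in 2, with DESeq2 and with no filter on low counts. In KMC it had 27.8 and 60.1 scaled CPM, compared with 0.952 and 3.67 in KC. This was a log2 fold change of 4.2 (SE 0.69) at an adjusted p of 0.0796. Over 12 alternatives, some of which left 1 library in a group, the adjusted p ranged from 3.55e-09 to 0.534.

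Ccl8 was the only one of the 10 genes for which edgeR called the difference between the MC and HC effects itself. That difference was 3.40 on the log2 scale (SE 0.51, edgeR adjusted p = 0.0193), in a contrast that called 2.18% of 14884 genes (1.77% as higher in MC and 0.41% as lower) and whose median over all genes was -0.03. Over 18 alternatives it stayed between 2.87 and 3.80, was called in 12, and had adjusted p-values from 1.2e-07 to 0.104. The call was lost with the replicate number as a block (adjusted p = 0.0849), and without MC control 1 (0.0708), MC 2 (0.0502), HC 2 (0.071), HC 3 (0.0511) or HC control 1 (0.104). The difference was 2.19 (SE 0.67, adjusted p = 0.102) for Ccr2 and 1.80 (SE 0.60, adjusted p = 0.128) for Ccl6, and both were called by DESeq2 and without MC control 2. At an unadjusted p under 0.05, 3 of the 10 were higher (12.3% of all genes) and 0 lower (8.43%). The difference of the other 7 genes ranged from 0.87 (Cxcl12) to 1.69 (Ccl7), with adjusted p-values from 0.255 to 0.552. Between the effects of KMC and MC, none of the 10 was called, nor was any of 14464 genes (0%), although 3 of the 10 had an unadjusted p under 0.05 and a larger value in KMC (7.56% of all genes) and 0 a smaller one (8.63%), and DESeq2 called none of the 10. These were Ccr2 (2.20, SE 0.77), Ccl6 (2.18, SE 0.86) and Ccl8 (1.81, SE 0.79), each at an adjusted p between 0.298 and 0.302.

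Ccr2 (chr9:124101950-124113557, plus strand) encodes the monocyte receptor of Ccl2 and Ccl7. It had 33.1, 37.5 and 15.9 scaled CPM in MC controls and 39.9, 51.2 and 98.7 in MC. The groups were separated by a small gap, with MC 3 far above the rest, and the log2 fold change was 1.13 (SE 0.41, adjusted p = 0.283). The libraries labelled HC had 36.2, 35 and 78.0 and their controls 141 and 66.6, so that HC 3 lay above control 2. The log2 fold change was -1.06 (SE 0.44, adjusted p = 0.315), with a range of 0.0444 to 0.809 over 13 alternatives. KC had 5.17 and 9.24 and KMC 39.6 and 113, a log2 fold change of 3.40 (SE 0.60, adjusted p = 0.0796). It was 3.95 without KMC 1 and 2.46 without KMC 2, in fits that each left 1 KMC library. Over 12 alternatives, some of which left 1 library in a group, adjusted p-values ranged from 3.27e-07 to 0.534. In these whole-tissue libraries, a larger number of cells of one type and more RNA per cell cannot be told apart. Per unit of Ptprc, the scaled CPM of Ccr2 was 1.89 to 2.48 in MC controls and 1.04 to 1.88 in MC, so MC lay just below its controls. This ratio was 0.919 to 1.21 in HC controls and 0.579 to 1.59 in the libraries labelled HC, and 0.919 to 1.65 in KC and 1.19 to 1.94 in KMC, and the groups of both experiments overlapped.

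Ccl6 and Ccl9 are adjacent genes on the minus strand of chromosome 11 (chr11:83587882-83593087 and chr11:83572919-83578636), 9.24 kb apart. RefSeq promoter windows (GRCm38.p6, 250 bases before to 50 bases after the start) were found for 7 of the 10 genes, Cxcl1, Cxcl2, Cxcl12, Ccr2, Ccl8, Ccl9 and Ccl6, and not for Ccl2, Ccl7 and Cxcl5. They were searched on both strands for the κB letters GGG and TTCC with any 3 bases between them, held by 5.56% of 32851 such windows, and the AP-1 letters TGANTCA, held by 7.81%. Windows of Ccl9 (chr11:83578587-83578886, minus strand) and Ccl6 (chr11:83593038-83593337, minus strand) are shown because these neighbours kept a narrow ratio of counts but differ in matches, with matches in capitals and each sequence on the strand of its gene.
Ccl9: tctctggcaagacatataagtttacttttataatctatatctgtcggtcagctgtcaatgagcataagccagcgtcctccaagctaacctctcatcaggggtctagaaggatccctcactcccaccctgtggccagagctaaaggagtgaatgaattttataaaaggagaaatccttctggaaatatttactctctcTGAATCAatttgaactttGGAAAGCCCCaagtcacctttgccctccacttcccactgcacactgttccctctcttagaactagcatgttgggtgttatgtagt
Ccl6: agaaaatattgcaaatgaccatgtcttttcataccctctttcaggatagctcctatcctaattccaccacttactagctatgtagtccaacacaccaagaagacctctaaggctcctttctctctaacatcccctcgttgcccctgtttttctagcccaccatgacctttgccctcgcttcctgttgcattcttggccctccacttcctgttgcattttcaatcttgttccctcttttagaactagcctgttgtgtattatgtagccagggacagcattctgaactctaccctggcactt
The window of Ccl9 holds TGAATCA, which reads as an AP-1 match on both strands, starting 53 bases before the start site, and GGAAAGCCCC, a κB match on the opposite strand starting 35 bases before it. No match was found in the window of Ccl6, nor in those of Ccr2, Cxcl12 and Ccl8. A match is a string of letters, not a bound site. The window of Ccl8 (chr11:82114935-82115234, plus strand), the gene with the called difference between experiments, reads as follows.
Ccl8: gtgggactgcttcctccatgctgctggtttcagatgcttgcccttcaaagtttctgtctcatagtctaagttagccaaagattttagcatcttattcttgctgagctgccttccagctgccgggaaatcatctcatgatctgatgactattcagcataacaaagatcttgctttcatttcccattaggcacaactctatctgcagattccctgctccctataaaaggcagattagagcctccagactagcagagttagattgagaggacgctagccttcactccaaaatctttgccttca

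In MC controls, Ccl6 had 68.0, 114 and 50.8 scaled CPM, and in MC 139, 148 and 191. Every MC library lay above every control, and the log2 fold change was 1.04 (SE 0.29, adjusted p = 0.205), with adjusted p-values of 0.0194 to 0.659 over 13 alternatives. It was called by DESeq2 and without MC control 2. Ccl9 had 38.4, 69.2 and 25.2 in the controls and 60.1, 67.0 and 105 in MC. Here control 2 lay above MC 1 and MC 2, and the log2 fold change was 0.80 (SE 0.37, adjusted p = 0.362), or 1.28 without control 2 (adjusted p = 0.0479, range 0.0479 to 0.706). Ccl6 had 54.6, 129 and 176 in the libraries labelled HC and 261 and 148 in the controls, and Ccl9 had 24.6, 55.7 and 75.6 compared with 101 and 56.7. HC 1 was the lowest library for both genes, and the groups overlapped, with log2 fold changes of -0.77 (SE 0.47, adjusted p = 0.485) and -0.60 (SE 0.46, adjusted p = 0.585). The KMC libraries were the most unequal. Ccl6 had 24.8 and 17.8 scaled CPM in KC and 57.8 and 354 in KMC, and Ccl9 had 17.6 and 8.31 compared with 24.9 and 149. The log2 fold change of Ccl6 was 3.28 (SE 0.84, adjusted p = 0.0992), and 1.47 without KMC 2. That of Ccl9 was 2.75 (SE 0.82, adjusted p = 0.12), and 0.97 without KMC 2.

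The neutrophil attractants Cxcl5, Cxcl1 and Cxcl2 lie in this order on the plus strand of chromosome 5 (chr5:90759360-90761624, chr5:90891241-90893115 and chr5:90903871-90905938), with Cxcl1 and Cxcl2 10.8 kb apart. The promoter windows of Cxcl1 (chr5:90890995-90891294) and Cxcl2 (chr5:90903649-90903948), both on the plus strand, are shown because they share a κB string.
Cxcl1: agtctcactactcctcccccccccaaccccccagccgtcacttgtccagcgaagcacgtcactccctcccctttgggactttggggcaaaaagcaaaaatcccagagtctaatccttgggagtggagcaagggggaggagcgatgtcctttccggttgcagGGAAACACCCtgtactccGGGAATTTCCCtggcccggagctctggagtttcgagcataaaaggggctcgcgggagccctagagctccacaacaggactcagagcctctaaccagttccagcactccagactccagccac
Cxcl2: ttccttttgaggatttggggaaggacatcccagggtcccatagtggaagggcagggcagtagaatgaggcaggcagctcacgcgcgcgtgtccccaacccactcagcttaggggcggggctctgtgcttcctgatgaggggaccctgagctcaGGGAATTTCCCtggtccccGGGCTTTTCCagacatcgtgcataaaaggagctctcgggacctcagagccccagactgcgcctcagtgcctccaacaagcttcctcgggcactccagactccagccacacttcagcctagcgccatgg
Both windows hold GGGAATTTCC, starting 71 bases before the start site in Cxcl1 and 97 bases before it in Cxcl2, and the same bases shifted by 1 match on the opposite strand. Each window holds one more κB match, GGAAACACCC in Cxcl1 and GGGCTTTTCC in Cxcl2, and no AP-1 match.

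Cxcl1 had 9, 31 and 1 counts in MC controls (0.297, 0.923 and 0.0449 scaled CPM) and 40, 61 and 49 counts in MC (1.35, 1.43 and 1.21 scaled CPM). All MC libraries lay above all controls and were close to each other, while the controls were spread, and the log2 fold change was 1.58 (SE 0.68, adjusted p = 0.342). Without control 2 it was 2.83 (adjusted p = 0.0402, range 0.0402 to 0.723 over 13 alternatives). Cxcl2 had 2, 27 and 7 counts in the controls and 30, 41 and 16 in MC, with a log2 fold change of 0.95 (SE 0.74, adjusted p = 0.529). Cxcl5 had 11, 48 and 1 counts in the controls and 25, 85 and 44 in MC, with a log2 fold change of 1.04 (SE 0.82, adjusted p = 0.535). For both genes the groups overlapped. Without control 2 the log2 fold change was 2.12 for Cxcl2 (adjusted p = 0.119) and 2.56 for Cxcl5 (adjusted p = 0.0767). Control 2 was the highest control for all 3 attractants. That library also had the highest neutrophil marker sum of the controls (205 scaled CPM, compared with 43.2 and 53.7). It was likewise the highest control for monocyte and macrophage markers (1550, compared with 637 and 830) and for fibroblast and stellate markers (2470, compared with 1010 and 1240). Its share of acinar counts was the lowest of the controls (42.7%, compared with 51.2 and 56.7%). The part of these differences in the attractants was not tested. None of the 3 attractants passed the test in the HC experiment. Cxcl1 had 3.28, 3.21 and 2.76 scaled CPM in the libraries labelled HC and 2.01 and 2.89 in the controls, the single member with a higher value there (log2 fold change 0.33, SE 0.26, adjusted p = 0.607). Cxcl2 had 1.03, 0.603 and 0.602 compared with 1.26 and 0.588 (log2 fold change -0.30, SE 0.46, adjusted p = 0.816). Cxcl5 had 37.8, 18.7 and 13 compared with 25.6 and 22.0, with controls inside the range labelled HC and a log2 fold change of -0.04 (SE 0.42, adjusted p = 0.979), whose sign turned in 4 of 13 alternatives. Per kilobase, Cxcl5 was the fourth most abundant of the 10 in the libraries labelled HC (12.5 ± 6.97 scaled CPM per kb, n = 3) and the ninth in MC (0.702 ± 0.325, n = 3), an untested contrast between tables. The stomach and gut markers of HC 1, 2 and 3 summed to 5940, 4830 and 6720 scaled CPM, beside Cxcl5 at 37.8, 18.7 and 13, and their part in the level of Cxcl5 was not tested.

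In KC the neutrophil attractants were almost undetected. Cxcl1 had 2 and 5 counts in KC and 16 and 71 in KMC, a log2 fold change of 1.87 (SE 0.78, adjusted p = 0.189). Cxcl5 had 0 and 2 counts in KC and 26 and 255 in KMC. Relative to TMM-scaled totals this is a ratio of 45.7, with an exact 95% interval of 12.5 to 379 that covers counting error only, and the fitted log2 fold change of 5.2 (SE 1.23, adjusted p = 0.0889) depends on the prior count and lay between 3.66 (without KMC 2) and 9.43 (without KC 2) when 1 library was left out. Cxcl2 had 0 and 2 counts in KC and 7 and 56 in KMC, a ratio of 10.2 (exact 95% interval 2.72 to 86.4, counting error only), and was removed by the filter on low counts before the test. KMC 2 was the highest library for all 3 genes.

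Cxcl12 (chr6:117168535-117181367, plus strand) retains CXCR4-bearing cells and is made mainly by stromal and endothelial cells. In MC it had 55.5, 44.6 and 33.4 scaled CPM and in the controls 27.5, 38.0 and 24.4, with MC 3 below control 2 and a log2 fold change of 0.57 (SE 0.23, adjusted p = 0.318). MC 3, the highest MC library for all 5 CC chemokines and Ccr2, was the lowest for Cxcl12. The libraries labelled HC had 53.7, 111 and 92.4 and the controls 80.1 and 133, and the groups overlapped (log2 fold change -0.31, SE 0.33, adjusted p = 0.711). KC had 25.8 and 34.4 and KMC 43.3 and 40.4, and the log2 fold change of 0.47 (SE 0.33, adjusted p = 0.391) was the smallest of the 9 tested. With library size as the only scaling it was 1.87, where the median of all genes stood at 1.47.

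Other genes of the same pathways were taken from lists. Of 16 other myeloid-attracting ligands, 11 were tested in the MC experiment, 12 in the HC experiment and 12 in KMC against KC, and edgeR called none. At an unadjusted p under 0.05, where 9.2% of all genes were higher in MC, 7.47% lower in the libraries labelled HC and 16.1% higher in KMC, 3 ligands were higher and 0 lower in MC, 3 higher and 3 lower against the HC controls, and 7 higher and 1 lower in KMC, with median log2 fold changes of 0.57, -0.14 and 1.65. Ccl12, a mouse Ccr2 ligand gene 11.8 kb from Ccl8, had the smallest p of the list in MC (log2 fold change 1.99, SE 0.61, adjusted p = 0.232) and in KMC (3.09, SE 0.65, adjusted p = 0.0796). The smallest p-values in the HC experiment were those of Cx3cl1, the membrane-bound ligand fractalkine (0.61, SE 0.13, adjusted p = 0.0974), the platelet chemokine Ppbp (2.76, SE 0.63, adjusted p = 0.12) and Ccl3 (-1.06, SE 0.30, adjusted p = 0.177). Ppbp was near the limit of detection, with 2 and 3 counts in the HC controls and 9, 17 and 20 in the libraries labelled HC.

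Of 19 other receptors for myeloid attractants, 17, 18 and 18 were tested, and edgeR called none in the 3 comparisons. At an unadjusted p under 0.05, 8 were higher in MC (9.2% of all genes), 10 were lower in the libraries labelled HC (7.47%) and 11 were higher in KMC (16.1%), with none in the opposite direction. Csf1r, the receptor of macrophage colony-stimulating factor, had a log2 fold change of 0.93 (SE 0.24, adjusted p = 0.172) in MC and of -0.86 (SE 0.22, adjusted p = 0.156) in the HC experiment. The difference between both effects was called (1.79, SE 0.36, adjusted p = 0.0351), as was that of Ackr1, a receptor of venules that binds chemokines without signalling (2.06, SE 0.42, adjusted p = 0.0365). Ackr3, which takes up Cxcl12, had the smallest p of the list in MC (0.87, SE 0.17, adjusted p = 0.0968). Csf3r, the granulocyte colony-stimulating factor receptor, had the smallest in the HC experiment (-0.86, SE 0.14, adjusted p = 0.0603), and the fractalkine receptor Cx3cr1 in KMC (2.09, SE 0.39, adjusted p = 0.0796).

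Of 16 inducers of these chemokines, cytokines and NF-κB genes among them, 14, 15 and 14 were tested and edgeR called none. Their median log2 fold change was 0.25 in MC, -0.01 in the HC experiment and 0.95 in KMC. At an unadjusted p under 0.05, 0 were higher (9.2% of all genes) and 1 lower (5.45%) in MC (Il17rc, -0.37, SE 0.14, adjusted p = 0.289), 3 higher (8.39%) and 2 lower (7.47%) against the HC controls, and 7 higher (16.1%) and 0 lower (9.48%) in KMC. Against the HC controls, Nfkbiz, an NF-κB co-regulator (0.65, SE 0.14, adjusted p = 0.114), and the cytokine gene Il1a (1.15, SE 0.37, adjusted p = 0.222) had the smallest p-values, and both were higher in every library labelled HC than in both controls (17.5% of all genes). The interleukin receptor gene Il17ra (-0.37, SE 0.12, adjusted p = 0.228) and the cytokine gene Il6 (-1.04, SE 0.40, adjusted p = 0.28) were lower in every one of them (16.1% of all genes). In KMC, the interleukin-1 receptor gene Il1r1 (1.83, SE 0.42, adjusted p = 0.0832), Tnf (2.85, SE 0.76, adjusted p = 0.104) and Tnfaip3 (1.61, SE 0.46, adjusted p = 0.112) led the list.

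The 22 chemokine and receptor genes of T cell attraction had a median log2 fold change of 2.11 in MC (15 tested, 10 higher at an unadjusted p under 0.05, beside 9.2% of all genes), of -0.73 in the HC experiment (21 tested, 2 higher and 4 lower, beside 8.39% and 7.47%) and of 2.04 in KMC (20 tested, 12 higher, beside 16.1%). The difference between the KMC and MC effects had a median of -0.04 over 19 T cell-attracting genes and of 2.04 over the 10 myeloid-attracting genes, beside -0.02 over all genes. The positive median was not particular to the myeloid-attracting genes. It was 2.61 for neutrophil markers, 1.93 for fibroblast and stellate markers and 1.5 for monocyte and macrophage markers. Acinar genes had -1.54 and B and plasma cell markers -2.49. These medians are a description, since no gene was called in this contrast.

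Marker genes of the cells that these chemokines attract were measured beside them, and edgeR called none of the monocyte, macrophage and neutrophil markers in the 3 comparisons. In the difference between the MC and HC effects, it called 6 of 16 monocyte and macrophage markers as higher in MC, Csf1r among them (1.77% of all genes). The median difference of the 16 was 1.76, and 13 had an unadjusted p under 0.05 (12.3% of all genes). Of 10 neutrophil markers, 0 were called in that difference. The 10 members had a median difference of 1.34, and T cell-attracting genes one of 2.66. It was 5.02 for B and plasma cell markers, 4.6 for adipocyte markers and 2.74 for T cell markers. Acinar genes had -0.42, islet markers -0.73 and erythroid markers -2.19. EdgeR also called 2 of 8 B and plasma cell markers (Jchain and Mzb1) and 1 of 7 T cell markers (Cd4) as higher in MC. The 17 monocyte and macrophage markers, which include Csf1r and Cx3cr1, summed to 637 to 1550 scaled CPM in MC controls and 1400 to 1990 in MC (16 listed), to 3890 to 6820 in HC controls and 2700 to 3810 in the libraries labelled HC, and to 443 to 468 in KC and 1400 to 3920 in KMC, and none was at 0 counts in any library. The sums of MC and its controls overlapped, and those of both other pairs did not. By unadjusted p under 0.05, 10 of 16 were higher in MC (9.2% of all genes), 11 of 17 lower in the libraries labelled HC (7.47%) and 16 of 17 higher in KMC (16.1%). The 16 neutrophil markers, which include Csf3r and Cxcr2, summed to 43.2 to 205 in MC controls and 114 to 223 in MC (10 listed, 0 of 10 with an unadjusted p under 0.05, and overlapping sums). They summed to 402 to 458 in HC controls, 283 to 365 in the libraries labelled HC, 6.8 to 15.0 in KC and 46.6 to 126 in KMC, with 1 to 4 of 16 at 0 counts in the HC experiment, 3 to 5 in KC and 1 in each KMC library. Ly6g, the defining surface marker of mouse neutrophils, had 0 or 1 count in the HC experiment, 0 in KC and 3 and 4 in KMC. Fibroblast and stellate markers summed to 1010 to 2470 in MC controls, 2020 to 2960 in MC, 10200 to 11700 in HC controls, 5120 to 10600 in the libraries labelled HC, 450 to 925 in KC and 2250 to 6640 in KMC. T cell markers summed to 1.98 to 3.18 in MC controls and 7.73 to 12.5 in MC, to 41.4 to 78.4 in HC controls and 22.2 to 60.1 in the libraries labelled HC, and to 2.38 to 3.64 in KC and 13.4 to 14.8 in KMC. The libraries labelled HC and their controls were also separated in endothelial markers (366 to 507, compared with 509 to 667) and in mesothelial markers (1640 to 2530, compared with 1080 to 1180). Adipocyte markers (6 of 6) and B and plasma cell markers (7 of 8) were also higher in MC at an unadjusted p under 0.05 (9.2% of all genes). At the same threshold, 4 of 8 B and plasma cell markers were lower in the libraries labelled HC (7.47% of all genes). EdgeR called 2 of these 8 (Cd79a and Mzb1) as lower there, compared with 0.0978% of all genes. The part of any of these cells in the chemokine results was not tested. As a share of the monocyte and macrophage sum, Ccl8 had 0.228 to 0.43% in MC controls and 0.601 to 1.21% in MC, 1.64 to 1.89% in HC controls and 1.17 to 1.76% in the libraries labelled HC, and 0.203 to 0.829% in KC and 1.53 to 1.98% in KMC. On that scale the MC and control libraries did not overlap, the KMC and KC libraries did not overlap, and the libraries labelled HC overlapped their controls. Per unit of Ptprc, Ccl8 overlapped in the MC experiment (0.179 to 0.326 in controls, 0.22 to 0.459 in MC). It also overlapped in the HC experiment (0.964 to 1.01 in controls, 0.531 to 1.36 in the libraries labelled HC). It did not overlap in KMC (0.832 to 1.03, compared with 0.304 to 0.365 in KC). Ccl6 per unit of Ptprc was lower in MC (3.61 to 3.65) than in its controls (5.08 to 6.05), and so was Ccl9 (1.57 to 2.01, compared with 2.87 to 3.5). In both other experiments the groups overlapped, with Ccl6 per unit of Ptprc at 2.04 to 2.24 in HC controls and 0.874 to 3.67 in the libraries labelled HC, and at 1.77 to 7.93 in KC and 1.73 to 6.04 in KMC. Ccl9 was at 0.782 to 0.87 and 0.393 to 1.59 in the HC experiment, and at 0.827 to 5.63 in KC and 0.745 to 2.54 in KMC.

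**Figure D4:**
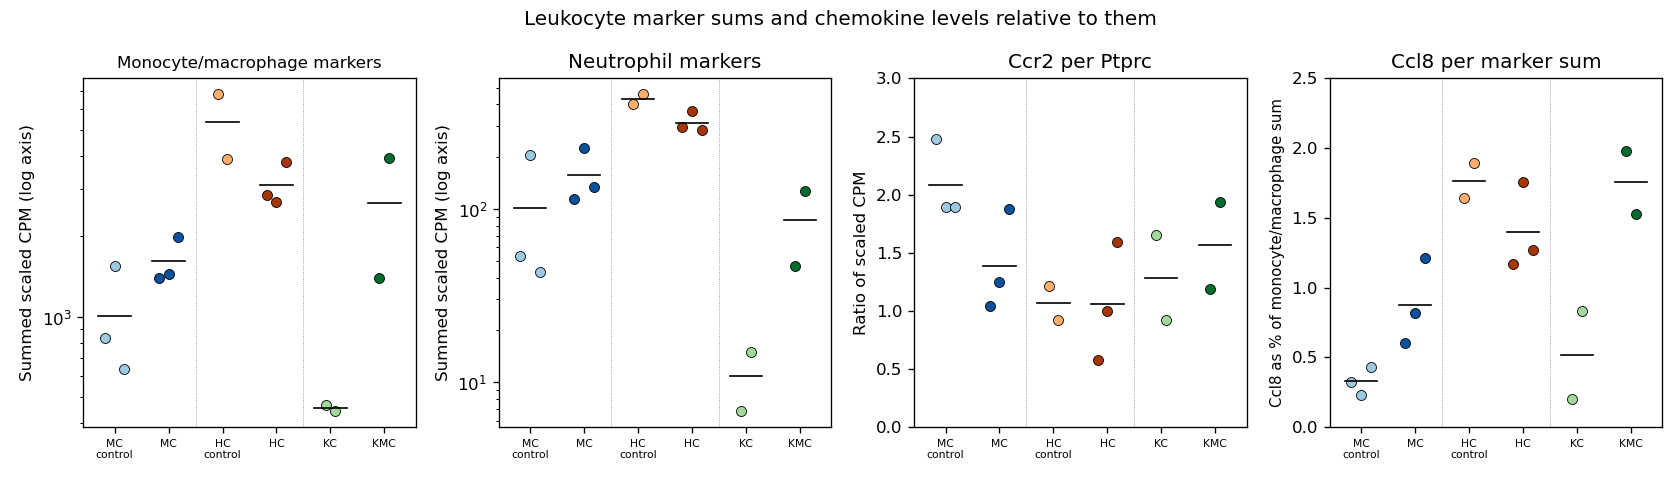
Summed scaled CPM of monocyte and macrophage markers and of neutrophil markers (log axes), the ratio of Ccr2 to Ptprc, and Ccl8 as a percentage of the monocyte and macrophage sum, each by group with 1 point per library and a line at the group mean. KMC sums lay above KC sums, and Ccl8 as a share of the sum was 0.601 to 1.21% in MC and 0.228 to 0.43% in its controls.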

How the data were processed

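RNA-Seq had been performed on pancreata, with each library pooled from 3 mice by the labels. The authors deposited raw counts per gene, without normalization, in 3 tables, made by the submitters' processing notes with bcl2fastq 2.17.14, STAR 2.6.1a and HTSeq 0.6.1 on mm10. The rule by which the MC table came to list 15175 genes is not given in the sources used here. The deposited comparison table, which holds the authors' fold changes and p-values, was not used. Total counts were 29766575 to 38745907 per library. The labels and the paper name different RNA and library kits.

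Samples were grouped by the labels. Within edgeR 4.0.16 (R 4.3.3), filterByExpr removed low genes, TMM set the scaling, and the quasi-likelihood test (glmQLFit, then glmQLFTest) was run within each pair of groups, and the differences between effects were tested as contrasts over both pairs. The tables came from separate experiments, and levels were tested only within a table. A call was a Benjamini-Hochberg adjusted p over all genes tested of at most 0.05 with a log2 fold change of 1 or more in size. SEs were derived from the fold change and the F statistic. Scripts were tested on simulated data. Alternatives were DESeq2 1.42.0, other scalings and filters, a replicate block, 1 fit of the HC and KMC tables, and leaving out each library. Ratios against groups with at most 3 counts have exact 95% binomial intervals.

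The 10 members and the lists were chosen with earlier results of these data known. The genes named are the 10 members, Map4k1, Ptprc, and, of the ligand, receptor, inducer and T cell-attracting lists, genes called in a comparison or among the 3 smallest p-values of a list, of which only some are described. Xist, Ddx3y and Ly6g were added after their values were seen. Positions and exon lengths are from GENCODE vM21, and promoters from RefSeq (GRCm38.p6).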

Additional observations from a re-analysis of the deposited data

Results flagged for a closer look

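The effects of the MC and HC experiments, each against its own controls, differed by the test of the difference itself (edgeR quasi-likelihood contrast, adjusted p over 14884 genes) for Ccl8 and for 5 genes of the related chemokine, receptor and inducer lists. Of 16 monocyte and macrophage markers, 6 were also called as higher in MC, Csf1r among them, compared with 1.77% of all genes. So were 2 of 8 B and plasma cell markers and 1 of 7 T cell markers. For Ccl8 the difference was 3.40 on the log2 scale (SE 0.51, adjusted p = 0.0193), with all 3 MC libraries above their controls and all 3 libraries labelled HC below theirs. The T cell attractants Cxcl9 and Cxcl10 differed by 6.12 (SE 0.82, adjusted p = 0.0188) and 4.47 (SE 0.75, adjusted p = 0.0267), and Ccr7, the lymph node homing receptor, by 3.66 (SE 0.80, adjusted p = 0.0438). Csf1r, the macrophage growth factor receptor, differed by 1.79 (SE 0.36, adjusted p = 0.0351) and the venular receptor Ackr1 by 2.06 (SE 0.42, adjusted p = 0.0365). For Ccl8 and each of the 5 genes named with it, every MC library lay above every MC control and every library labelled HC lay below both of its controls. Over all genes tested, 10.9% lay above in MC and 16.1% below in the libraries labelled HC, and the share that did both was not counted. The genes were picked by the contrast in these same libraries, so their separation is a description and adds no support. All 6 calls were lost where this contrast called 0 genes, which was with the replicate number as a block, without HC 2 and without HC control 1. By the labels, both experiments also differed in age and in library kit, and by the counts in the share of acinar and stomach genes, and their part in the differences was not tested. No group had 4 or more libraries, so single libraries were not tested as outliers.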

How the results depend on the processing

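Depth limits Cxcl1, Cxcl2 and Cxcl5 in KC, where each had 0 to 5 counts per library, and small groups let single libraries decide calls, as the ranges show. Members called with edgeR were 0 in MC, 0 in the HC experiment, 0 in KMC against KC, 1 in the difference between MC and HC effects and 0 in that between KMC and MC effects. DESeq2 called 2, 1, 7, 3 and 0 of them, and 453, 468, 2159, 1005 and 74 genes in all, where edgeR called 0, 104, 3, 325 and 0. With no filter on low counts, 1 member and 395 genes were called in the HC experiment and 9 genes in KMC. The median of all genes moved to 0.29 (MC), 1.47 (KMC), 0.34 (MC minus HC) and 1.19 (KMC minus MC) with library size alone, and to 0.62 (KMC), 0.12 and 0.51 with library size without acinar genes. Library size alone then called 1 gene in MC, 4715 in KMC (4695 higher and 20 lower, compared with 1 and 2), 9 members there, and 98 genes in MC minus HC (93 higher and 5 lower, compared with 264 and 61). Library size without acinar genes called 51 genes in the HC experiment, 1808 in KMC (1782 higher and 26 lower) with 7 members, and 166 in MC minus HC. One fit of the HC and KMC tables called 1 gene in the HC experiment and 3230 genes with 8 members in KMC.

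Same-numbered libraries had correlations of deviations of 0.0762, 0.313 and -0.347 in the MC experiment, 0.214 and 0.202 in the HC experiment and 0.101 in KMC, and nothing in the labels ties them, so they share only a number. With the replicate number as a block, 339 genes and 1 member (Ccr2) were called in the HC experiment, 2469 genes and 7 members in KMC, and 0 genes and 0 members in MC minus HC. Cxcl5 turned to 0.17 under the block in the HC experiment, and Cxcl1 to -0.12 in KMC minus MC. Cxcl12 in KMC minus MC turned to 1.08 with library size alone and to 0.37 without acinar genes.

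Leaving out 1 library at a time gave 0 to 718 genes and 0 to 4 members in MC (4 members without MC control 2, 1 without MC 1), 0 to 379 genes in the HC experiment, 0 to 2288 genes and 0 to 7 members in KMC (7 without KMC 1, 2 without KMC 2), 0 to 1583 genes and 0 to 4 members in MC minus HC, and 0 to 959 genes in KMC minus MC. Fits that left 1 library in a group assumed that it varies like the other group. Signs turned for Ccl2 in MC (-0.22 to 1.21), for Cxcl5 (-0.58 to 0.24), Ccl7 (-1.48 to 0.00), Cxcl2 (-0.75 to 0.34) and Cxcl12 (-0.63 to 0.09) in the HC experiment, and for Cxcl1 (-1.02 to 0.70) and Cxcl12 (-0.36 to 0.09) in KMC minus MC.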
